A study of Mus musculus with 2 samples.

Results

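The complement genes described here are 9 of the 32285 genes listed in the deposited count matrices. They were taken by name: the 3 chains of C1q (*C1qa*, *C1qb*, *C1qc*), the components *C3*, *C4b*, *Cfb* and *Cfp*, and the anaphylatoxin receptors *C3ar1* and *C5ar1*. All 9 were found by symbol. They were followed across cell classes and between 2 single-cell libraries of myeloid cells from colorectal polyps of C57BL6/J mice.

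Both groups of mice received the carcinogen azoxymethane (AOM) followed by 3 cycles of 1% dextran sodium sulfate (DSS), which inflames the colon, and were taken 16 weeks after AOM, at a labelled age of 26 weeks. The WT library pooled polyp-infiltrating cells of 5 mice and the *Clec7a*-/- library, which lacks the β-glucan receptor Dectin-1, pooled cells of 4 mice. Cells were sorted on CD11b and CD11c, the products of *Itgam* and *Itgax*, and tagged with unique molecular identifiers (UMIs) at the 3′ end of transcripts. No untreated mice and no second library of either genotype were analysed here, so no test between genotypes was possible. Values are given side by side with exact 95% intervals that cover counting error only, not differences between mice or between library preparations. *Clec7a*, the deleted gene, was not analysed here, so its absence could not be checked.

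Complement is a cascade of proteins that tag particles for uptake and release small peptides that call and activate leukocytes. C1q recognises bound antibody and dying cells and starts the classical pathway through C4, factor B and properdin carry the alternative pathway, and both converge on the cleavage of C3. The fragments C3a and C5a act on the receptors encoded by *C3ar1* and *C5ar1*. Most circulating complement comes from the liver, whereas C1q is made largely by tissue macrophages and dendritic cells, and properdin by myeloid cells.

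The 9 genes lie on 5 chromosomes of GRCm38, all on the minus strand. The C1q genes are neighbours on chromosome 4, with *C1qb* at chr4:136880129-136886187, *C1qc* at chr4:136889804-136893065 and *C1qa* at chr4:136895917-136898803. *C4b* (chr17:34728380-34743882), *Cfb* (chr17:34856374-34862518) and *C3* (chr17:57203970-57228136) are on chromosome 17. *C3ar1* is at chr6:122847138-122856161, *C5ar1* at chr7:16246743-16259540 and *Cfp* at chrX:20925454-20931555. *Cfb* shares exon bases with *Gm20547* on the same strand, which is not among the genes listed in the files, so reads there may have been lost from *Cfb* if they counted as ambiguous.

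Upstream sequences of 4 members are shown, those that the sequence table held with a match to 1 of 3 motifs. Among them *C1qb*, *C1qc* and *C3ar1* were highest in macrophage-like cells and *C3* in neutrophil-like cells. Each is read 5′ to 3′ on the minus strand, from RefSeq (GRCm38.p6), and ends upstream of the annotated transcript. Capitals mark matches on either strand to the 3 motifs. These are AGGAAG (an ETS core of the kind PU.1 binds), TGCTGA (part of a Maf recognition element) and TTNNGNAA (a C/EBP-like motif, with N any base).
C1qb: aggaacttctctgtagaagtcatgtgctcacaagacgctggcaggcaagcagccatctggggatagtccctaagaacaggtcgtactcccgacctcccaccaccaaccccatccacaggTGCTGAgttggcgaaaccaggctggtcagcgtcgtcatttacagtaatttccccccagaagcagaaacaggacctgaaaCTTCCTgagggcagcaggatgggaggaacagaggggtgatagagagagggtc
C1qc: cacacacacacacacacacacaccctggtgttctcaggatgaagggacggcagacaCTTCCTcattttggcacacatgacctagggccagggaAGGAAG
C3ar1: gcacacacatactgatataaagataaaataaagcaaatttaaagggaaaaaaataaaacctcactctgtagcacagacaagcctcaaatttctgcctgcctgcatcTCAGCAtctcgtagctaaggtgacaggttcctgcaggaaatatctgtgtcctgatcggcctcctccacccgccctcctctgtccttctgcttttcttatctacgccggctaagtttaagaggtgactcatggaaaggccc
C3: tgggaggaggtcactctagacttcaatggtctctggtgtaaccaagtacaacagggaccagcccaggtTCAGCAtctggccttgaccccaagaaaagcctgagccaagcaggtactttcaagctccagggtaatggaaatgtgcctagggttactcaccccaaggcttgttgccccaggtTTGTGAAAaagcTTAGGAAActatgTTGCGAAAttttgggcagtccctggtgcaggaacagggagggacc

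The *C1qb* sequence is chr4:136886201-136886450 and holds 1 AGGAAG and 1 TGCTGA. The *C1qc* sequence, chr4:136893066-136893164, is 99 bases long and holds 2 AGGAAG. The *C3ar1* sequence, chr6:122856162-122856407, holds 1 TGCTGA. The *C3* sequence, chr17:57228137-57228386, holds 3 TTNNGNAA, at 70, 58 and 45 bases before the RefSeq start, and 1 TGCTGA. No match overlaps another. Among 32851 promoters, a 250-base window holds AGGAAG in 29.5%, TGCTGA in 16.1% and TTNNGNAA in 36.8%, and a 99-base window holds AGGAAG in 3944 of them. The matches are therefore common sequences and are given as a description only. *Cfp* and the 48 bases left for *C5ar1* hold none of the 3 motifs, and *C1qa*, *Cfb* and *C4b* are named only.

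The WT library held 15869215 UMIs in 3467 barcodes and the *Clec7a*-/- library 11808230 in 3080. A limit of 200 to 4000 genes and of 5% mitochondrial UMIs kept 2696 and 1999 cells, and removed 22.2% of WT and 35.1% of *Clec7a*-/- barcodes. The 15 clusters were made without complement genes and named from marker lists by a rule set after the clusters were seen. The macrophage-like class was clusters 3 and 7 and the monocyte-like class clusters 0 and 4. The neutrophil-like class was clusters 1 and 2, and the dendritic-cell-like (DC-like) class clusters 6, 8 and 9. Cluster 4 was named from a list of monocyte-macrophage transitional markers (mean log2 marker score 1.44), which the rule counted as monocyte-like. Cluster 0 was named from the monocyte list (2.45). The name of cluster 2 is less certain than that of cluster 1. Of its 10 leading genes, headed by *Prok2* and *Col15a1*, 0 were listed neutrophil markers, although 7 of the 10 listed markers were raised. Its mean log2 marker score was 1.32 for neutrophil and 0.94 for eosinophil, at a median of 983 UMIs. Cluster 5 carried neutrophil as well as monocyte markers and stayed in no class (12.8% of WT and 4.50% of *Clec7a*-/- cells). The macrophage-like class was 19.8% and 14.96% of kept cells, the monocyte-like class 24.3% and 23.6%, the neutrophil-like class 25.3% and 20.2% and the DC-like class 13.3% and 28.0%. The T-cell-like cluster 10 (66 and 121 cells) should lack most of these genes and gives a rough guide to the level that RNA from other cells can reach. It is not a floor common to all classes, since DC-like cells fell below it for some members. Its cells were also shallower, with a median of 2082.5 and 1552 UMIs against 4253 and 4110 in DC-like cells. No doublets were removed, and 6 kept barcodes occurred in both libraries.

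C1q transcripts were concentrated in macrophage-like cells of both libraries. This class was 17.7% of kept cells and held 31.8% of all UMIs, but 87.4% of the C1q UMIs. The summed level of the 3 chains was 8253 CPM (UMIs of the gene scaled to the total UMIs of those cells, per 1e6) in WT and 9907 CPM in *Clec7a*-/- macrophage-like cells. It was 785 and 940 CPM in monocyte-like cells, so that the macrophage-like level was 10.5-fold higher in both libraries (10.0 to 11.0 and 9.98 to 11.1). Neutrophil-like cells had 106 and 121 CPM and DC-like cells 65.4 and 67.9 CPM. T-cell-like cells had 40.1 and 118 CPM, from 7 and 28 UMIs. These UMIs lay in 6 of 66 and 9 of 121 cells, so the guide rests on few barcodes. On this rough guide, the DC-like values lay near or below the level that other cells' RNA can give. The neutrophil-like value lay near it in *Clec7a*-/- cells. In WT it lay above the interval of the T-cell-like level (16.1 to 82.6 CPM).

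**Figure D1:**
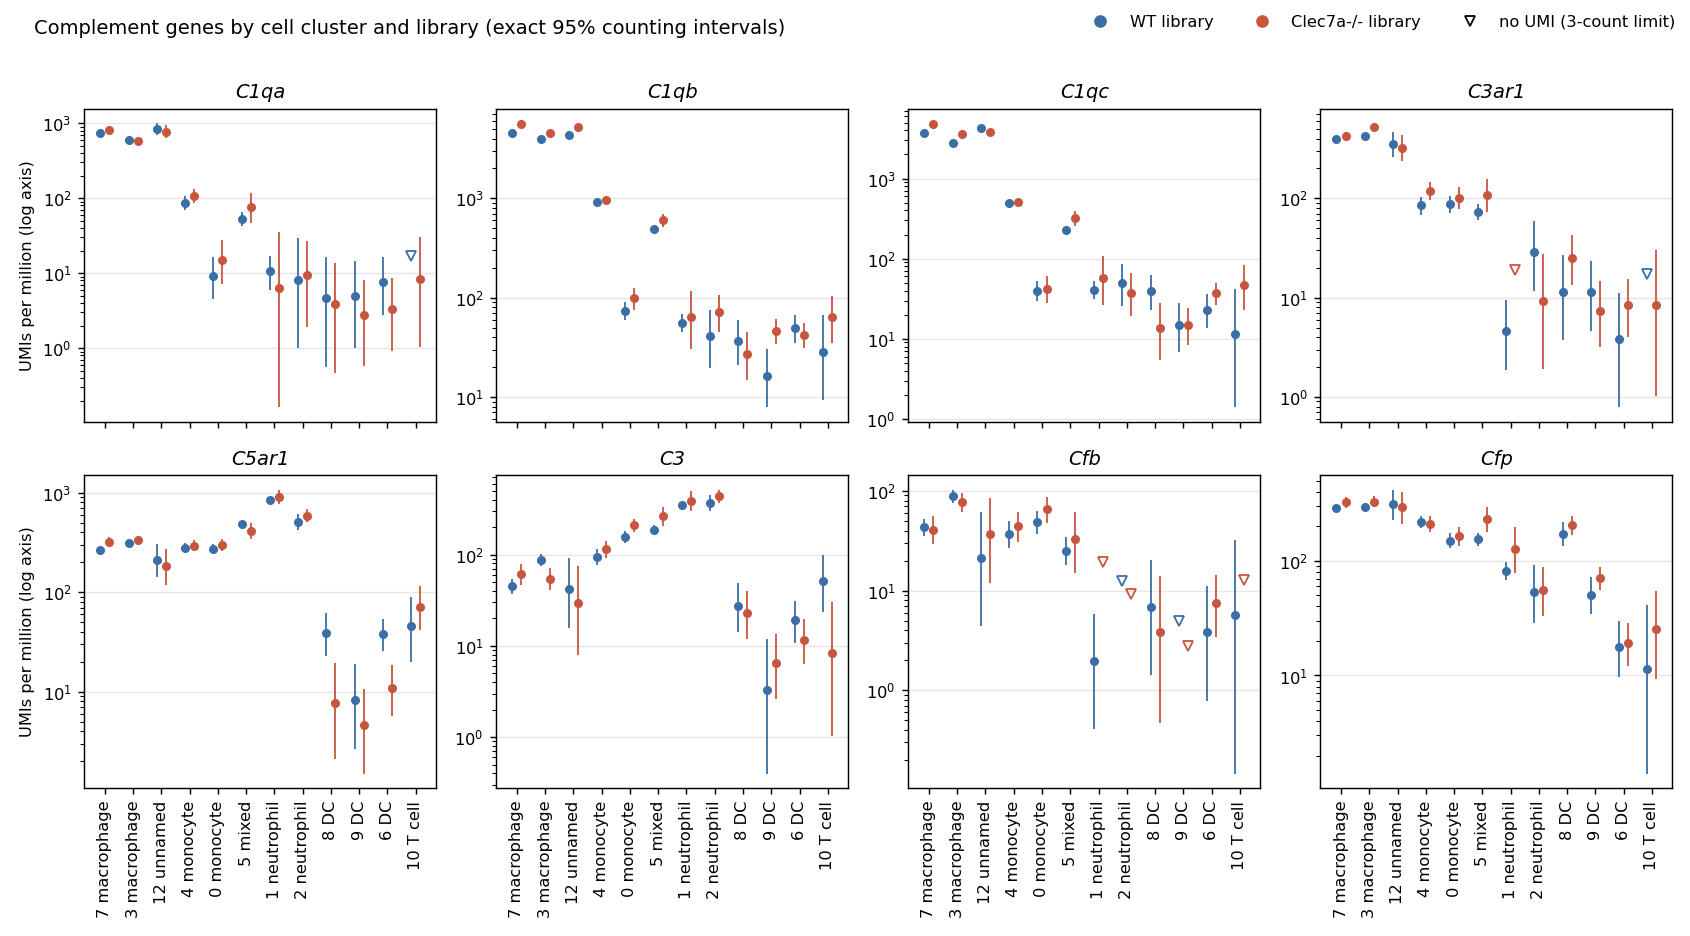
Level of 8 complement genes (CPM, log axis) in 12 clusters of the WT and *Clec7a*-/- libraries, with exact 95% counting intervals; *C4b* and 3 clusters of other cell types are not drawn. The C1q chains and *C3ar1* peak in clusters 7, 3 and 12, and *C3* and *C5ar1* in the neutrophil-like clusters 1 and 2.

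Within the macrophage-like class, cluster 7, whose leading genes include *Trem2*, *Lpl* and *Igf1*, had more C1q than cluster 3, led by *Pgf*, *Adamdec1* and *Mmp13*. Summed C1q was 9022 CPM in WT and 11105 CPM in *Clec7a*-/- cells of cluster 7, and 7311 and 8738 CPM in cluster 3, a ratio of 1.23 (1.21 to 1.26) and 1.27 (1.24 to 1.31). The same direction was seen for each chain. All 3 chains were seen in 93.9% and 94.1% of the cells of cluster 7 and in 81.5% and 78.5% of those of cluster 3, where the median depth was lower (6140 and 5646 UMIs, against 9876 and 8112). The small cluster 12, which proliferation genes led and which was left unnamed, had a C1q UMI in 31 of 31 cells.

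Monocyte-like cells did not share their C1q evenly. The transitional cluster 4 held 1667 of the 1815 C1q UMIs of the class in WT and 1288 of 1391 in *Clec7a*-/- cells. The class level of C1q is therefore mostly that of cluster 4. Cluster 4, led by *Ccl24*, *Mmp19* and *Arg1*, had 1503 and 1572 CPM, whereas cluster 0, led by *Ly6c2* and *Chil3*, had 123 and 156 CPM. The ratio of the 2 clusters was 12.2 (10.3 to 14.6) in WT and 10.1 (8.25 to 12.5) in *Clec7a*-/- cells. All 3 chains were seen in 20.3% and 19.8% of the cells of cluster 4, and in 0.744% and 0.372% of those of cluster 0. In the T-cell-like cluster this was 0 of 66 WT cells (which allows up to 5.44%, exact binomial) and 1 of 121 *Clec7a*-/- cells.

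Because depth differed between classes, each cell was also thinned to 1000 UMIs, leaving out shallower cells. A C1q UMI was then seen in 98.2% of 789 macrophage-like cells, 25.7% of 1051 monocyte-like cells, 10.2% of 822 neutrophil-like cells and 4.76% of 147 T-cell-like cells, with 44, 74, 262 and 40 cells left out. Before thinning, the share in macrophage-like cells was 99.1% in WT and 99.3% in *Clec7a*-/- and in monocyte-like cells 39.0% and 38.6%. The median of the thinned cells was 9 C1q UMIs in cluster 7, 8 in cluster 3, 1 in cluster 4 and 0 in cluster 0. In cluster 4, 10.0% of the thinned cells had 5 or more C1q UMIs, and in cluster 7 this was 89.3%. Single cells of cluster 4 thus ranged from no C1q UMI to 5 or more. How much of this spread counting alone would give was not tested.

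**Figure D2:**
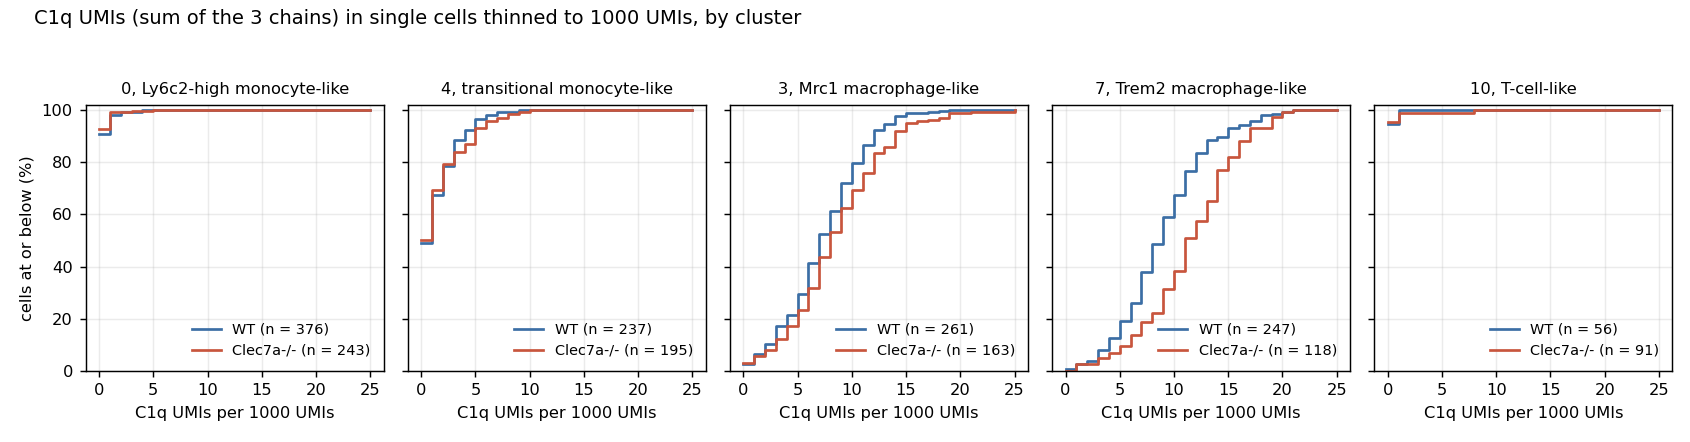
Cumulative share of cells (percent, vertical axis) by the number of C1q UMIs per cell after thinning to 1000 UMIs (horizontal axis), for clusters 0, 4, 3, 7 and 10 in both libraries. The curves of clusters 0 and 10 start near the top, since most cells have no C1q UMI, whereas the medians of clusters 3 and 7 are 8 and 9 over both libraries.

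The 3 chains form 1 protein, and their proportions differed between cell types. *C1qb* was 51.9% of the C1q UMIs of WT macrophage-like cells (51.3 to 52.4) and 51.1% of those of *Clec7a*-/- cells (50.4 to 51.8). In monocyte-like cells it was 61.6% (59.3 to 63.8) and 61.0% (58.3 to 63.5), and in cluster 5 63.5% (60.8 to 66.2) and 60.4% (54.3 to 66.2). *C1qc* went the other way, with 39.9% and 41.9% in macrophage-like and 32.5% and 31.9% in monocyte-like cells. The intervals of the macrophage-like and monocyte-like classes did not overlap for either chain in either library. Barcodes that the filter removed had 52.2% and 51.9% *C1qb*, as in macrophage-like cells, so the C1q of monocyte-like cells was not in the proportion found in macrophage-like cells or in removed barcodes. The macrophage-like clusters also differed, with 53.6% (52.8 to 54.4) *C1qb* in cluster 3 and 50.7% (50.1 to 51.4) in cluster 7 in WT. In DC-like cells *C1qb* was 57.7% (52.03 to 63.3) of 310 C1q UMIs over both libraries, against 51.6% (51.2 to 52.0) in macrophage-like cells. By library it was 54.2% (44.8 to 63.3) in WT, which overlaps macrophage-like cells, and 60.0% (52.7 to 67.0) in *Clec7a*-/-. Cluster 9 of the *Clec7a*-/- library had 72.5% (60.4 to 82.5) of 69 UMIs. Clusters 6 and 8 had 55.3% (47.3 to 63.1) and 51.7% (38.2 to 65.0) over both libraries, which also overlap. Between libraries, *C1qa* was 8.24% (7.95 to 8.53) of macrophage-like C1q in WT and 7.02% (6.67 to 7.38) in *Clec7a*-/- cells. With 245 C1q UMIs in neutrophil-like cells and 35 in T-cell-like cells over both libraries, the shares there were too imprecise to set them apart from macrophage-like cells.

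**Figure D3:**
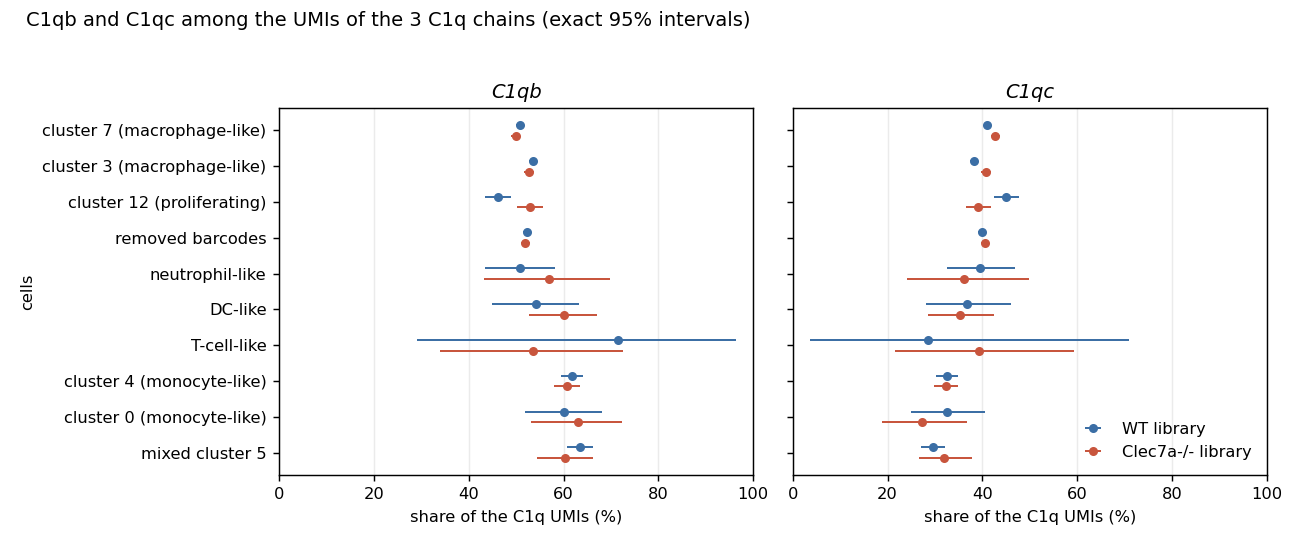
Share of C1q UMIs that came from *C1qb* and from *C1qc* (percent) by cell group and library, with exact 95% binomial intervals. In WT and *Clec7a*-/-, *C1qb* is 50.7% and 49.9% in cluster 7, 53.6% and 52.6% in cluster 3 and 52.2% and 51.9% in removed barcodes. It is 61.7% and 60.8% in cluster 4 and 60.1% and 63.1% in cluster 0.

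Between genotypes, *C1qb* and *C1qc* were higher in *Clec7a*-/- than in WT macrophage-like cells, by less than 1.5-fold. *C1qb* was 4281 CPM (4219 to 4344) in WT and 5062 CPM (4965 to 5161) in *Clec7a*-/- cells, so the log2 ratio was 0.24 (0.21 to 0.28). *C1qc* was 3292 CPM (3238 to 3347) and 4149 CPM (4061 to 4239), a log2 ratio of 0.33 (0.29 to 0.37). *C1qa* was 680 and 696 CPM, with overlapping intervals and a log2 ratio of 0.03 (-0.06 to 0.12). The *C1qb* and *C1qc* differences were present in both macrophage-like clusters, with log2 ratios of 0.28 and 0.36 in cluster 7 and 0.23 and 0.35 in cluster 3. *C1qa* had 0.13 (0.01 to 0.25) in cluster 7 and -0.05 (-0.20 to 0.09) in cluster 3.

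The background for these ratios is the other genes of the same cells. Of 5807 genes with at least 100 UMIs in the macrophage-like class, 3.17% were at least 1.5-fold lower and 1.83% at least 1.5-fold higher in *Clec7a*-/- cells, and 0 of the 8 members with enough UMIs passed either limit. The median log2 ratio was 0.17 for these 8 members and -0.02 for all 5807 genes. Removed barcodes went the other way, with 4438 CPM of C1q in WT and 2937 CPM in *Clec7a*-/- barcodes, a log2 ratio of -0.60 (-0.63 to -0.56). Those barcodes were mostly over the mitochondrial limit (729 of 771 WT and 1057 of 1081 *Clec7a*-/- barcodes), and the part of this filter in the class ratios was not tested beyond the alternatives listed at the end.

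In monocyte-like cells *C1qb* was 484 and 573 CPM and *C1qc* 255 and 300 CPM in WT and *Clec7a*-/- cells, log2 ratios of 0.24 (0.11 to 0.37) and 0.23 (0.05 to 0.41). *C1qa* was 46.3 and 66.9 CPM, from 107 and 99 UMIs. Cluster 4 was 251 of 654 WT and 202 of 471 *Clec7a*-/- monocyte-like cells, and within it the log2 ratio of summed C1q was 0.06 (-0.04 to 0.17). Within cluster 0 it was 0.34 (-0.04 to 0.71). With clusters drawn after reciprocal PCA integration the class ratio of summed C1q was -0.14 in place of 0.26, and with 500 to 6000 detected genes it was -0.02.

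*C3*, the component at which the pathways meet, had another pattern and was highest in neutrophil-like cells. They held 37.2% of its UMIs against 11.3% of all UMIs, and macrophage-like cells held 17.8%. The level was 352 CPM (325 to 381) in WT and 421 CPM (364 to 483) in *Clec7a*-/- neutrophil-like cells, 127 and 157 CPM in monocyte-like cells, 64.3 and 57.5 CPM in macrophage-like cells and 15.8 and 11.8 CPM in DC-like cells. The neutrophil-like level was 5.46-fold (4.73 to 6.32) and 7.31-fold (5.79 to 9.26) that of macrophage-like cells. T-cell-like cells had 51.6 and 8.43 CPM, from 9 and 2 UMIs, so the macrophage-like level could be told apart from it in the *Clec7a*-/- library but not in WT. Clusters 1 and 2 did not differ beyond counting error, with 349 and 370 CPM in WT and 390 and 436 CPM in *Clec7a*-/- cells.

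Among monocyte-like cells, *C3* ran opposite to C1q. Cluster 0 had 157 and 210 CPM and cluster 4 94.7 and 115 CPM, so that cluster 4 had 0.60 (0.47 to 0.77) and 0.55 (0.42 to 0.71) of the level of cluster 0. Between genotypes the log2 ratio was 0.26 (0.02 to 0.49) in the neutrophil-like and 0.31 (0.05 to 0.56) in the monocyte-like class, and -0.16 (-0.49 to 0.16) in the macrophage-like class. The neutrophil-like class was mostly cluster 1 in WT (496 cells, and 185 of cluster 2) and mostly cluster 2 in *Clec7a*-/- (317 cells, and 86 of cluster 1). The *Clec7a*-/- cells of that class were also shallower, with a median of 1051 UMIs against 2507. TMM scaling within the class brought the neutrophil-like *C3* ratio to 0.13. Within clusters 1 and 2 the *C3* ratios were 0.16 (-0.25 to 0.55) and 0.24 (-0.16 to 0.63). In cluster 3 *C3* was lower in *Clec7a*-/- cells, at 54.4 CPM from 56 UMIs against 88.0 CPM from 169 UMIs. In cluster 7 it was 60.7 against 45.0 CPM, a log2 ratio of 0.43 (-0.05 to 0.90).

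*Cfb*, factor B of the alternative C3 convertase, was a low transcript of macrophage-like and monocyte-like cells. Macrophage-like cells held 59.9% of its UMIs, at 63.4 CPM (56.1 to 71.4) in WT and 59.0 CPM (48.9 to 70.6) in *Clec7a*-/- cells, and monocyte-like cells had 43.3 and 53.4 CPM. The ratio of these classes was 1.47 (1.16 to 1.86) in WT and 1.11 (0.83 to 1.49) in *Clec7a*-/- cells, where the classes could not be told apart. Neutrophil-like cells had 3 and 0 *Cfb* UMIs, although they had the most *C3*. Within the macrophage-like class *Cfb* was lower in cluster 7 than in cluster 3, at 42.9 against 88.5 CPM in WT and 40.8 against 76.8 CPM in *Clec7a*-/- cells, which is the reverse of C1q.

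*Cfp*, properdin, which stabilises that convertase, was detected in each of the 4 main classes. It was 291 CPM (275 to 308) and 326 CPM (301 to 351) in macrophage-like cells, 183 and 189 CPM in monocyte-like cells, 77.3 and 79.5 CPM in neutrophil-like cells and 65.4 and 73.2 CPM in DC-like cells. T-cell-like cells had 11.5 and 25.3 CPM, from 2 and 6 UMIs. Macrophage-like cells exceeded monocyte-like cells 1.60-fold (1.43 to 1.79) and 1.72-fold (1.49 to 1.99). The DC-like class was not uniform, since cluster 8 had 173 and 204 CPM of *Cfp* and cluster 6, led by *Fscn1* and *Ccl22*, 17.7 and 19.2 CPM. Between genotypes the log2 ratio was 0.16 (0.02 to 0.30) in macrophage-like cells and 0.05 (-0.17 to 0.27) in monocyte-like cells.

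*C4b*, the C4 component of the classical pathway, was at the edge of detection. It had 11 UMIs in kept WT cells (0.896 CPM) and 0 in *Clec7a*-/- cells, where a floor of 3 counts over the library is 0.397 CPM. The 11 WT UMIs were spread over macrophage-like (5), monocyte-like (3), neutrophil-like (1) and cluster 5 (2) cells. Over all barcodes the counts were 16 and 1. Its near copy *C4a* (chr17:34809092-34823464) had 7 and 9 UMIs in kept cells, and 57.7% of the 31-base words in the last 500 bases of *C4b* also occur there, so the split between the 2 genes is uncertain.

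The anaphylatoxin receptors differed in the cell class with the highest level, although macrophage-like cells had both. *C3ar1*, the C3a receptor, was 408 CPM (389 to 428) in WT and 473 CPM (443 to 504) in *Clec7a*-/- macrophage-like cells, which held 79.9% of its UMIs. It was 86.1 and 111 CPM in monocyte-like cells, 4.74-fold (4.09 to 5.52) and 4.27-fold (3.61 to 5.07) lower. Neutrophil-like cells had 14 and 3 UMIs (7.95 and 6.28 CPM), near the 0 and 2 UMIs of T-cell-like cells. *C3ar1* could not be told apart between clusters 4 and 0, with 84.8 against 87.3 CPM in WT (a ratio of 0.97, 0.73 to 1.30) and 118 against 101 CPM in *Clec7a*-/- cells (1.17, 0.85 to 1.62). The log2 ratio between genotypes was 0.21 (0.10 to 0.33) in macrophage-like and 0.36 (0.06 to 0.67) in monocyte-like cells.

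*C5ar1*, the C5a receptor, was highest in neutrophil-like cells, at 802 CPM (761 to 845) in WT and 697 CPM (624 to 776) in *Clec7a*-/- cells. Macrophage-like cells had 288 and 328 CPM and monocyte-like cells 276 and 298 CPM, and these classes overlapped in level. Neutrophil-like cells held 30.1% of the *C5ar1* UMIs against 11.3% of all UMIs. The deeper macrophage-like cells held 32.7% of them against 31.8% of all UMIs, so the neutrophil-like lead is one of level, not of UMI number. Neutrophil-like cells exceeded macrophage-like cells 2.78-fold (2.58 to 3.01) in WT and 2.13-fold (1.86 to 2.43) in *Clec7a*-/-. T-cell-like cells had 45.8 and 71.6 CPM, and DC-like cells, at 28.3 and 7.86 CPM from 52 and 22 UMIs, were no higher than these. Within the neutrophil-like class *C5ar1* was 1.65-fold (1.37 to 1.999) and 1.54-fold (1.23 to 1.93) higher in cluster 1 than in cluster 2.

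The libraries filled the 2 neutrophil-like clusters differently. The class ratio of *C5ar1* was -0.20 (-0.38 to -0.03), whereas it was 0.11 (-0.15 to 0.36) within cluster 1 and 0.20 (-0.13 to 0.54) within cluster 2. In macrophage-like cells the *C5ar1* log2 ratio was 0.18 (0.05 to 0.32). In the neutrophil-like class 9.89% of 2184 genes were at least 1.5-fold lower and 9.43% at least 1.5-fold higher in *Clec7a*-/- cells, against 0 of 4 members. In monocyte-like cells these shares were 3.36% and 2.88% of 4371 genes and 0 of 8 members, and in DC-like cells 3.05% and 3.38% of 4850 genes and 0 of 3 members. The members' median log2 ratio and that of all genes were 0.15 and -0.02 in neutrophil-like, 0.27 and 0.03 in monocyte-like and 0.16 and 0.02 in DC-like cells.

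**Figure D4:**
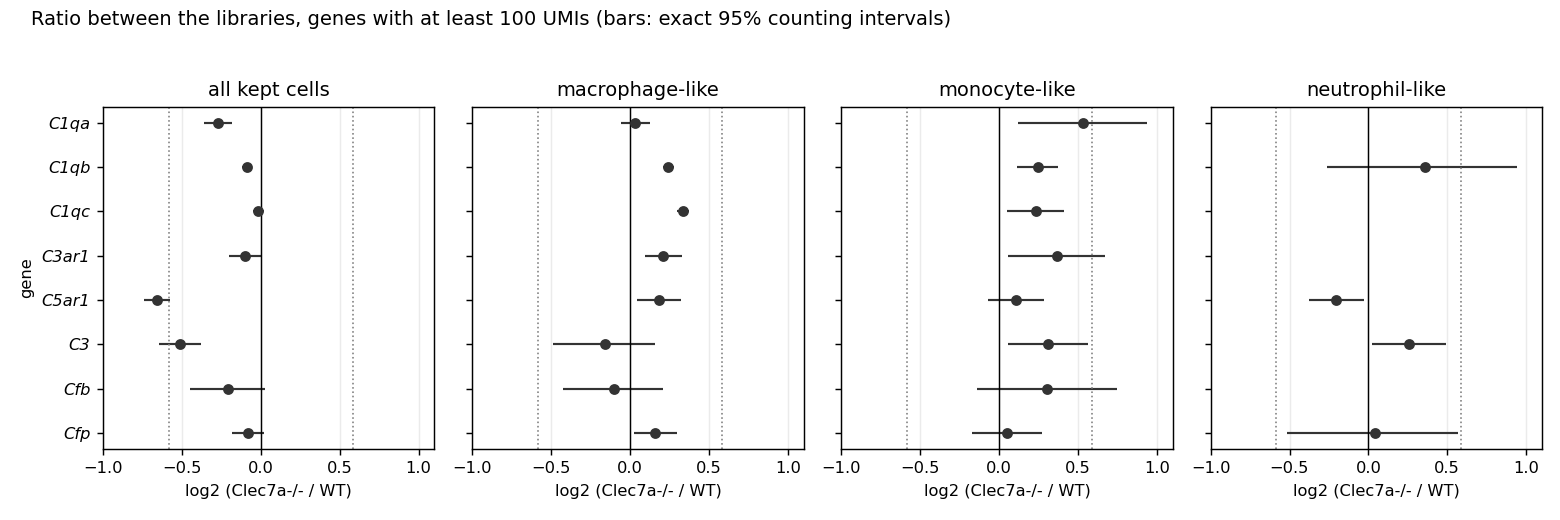
Log2 ratio of the *Clec7a*-/- over the WT library for members with at least 100 UMIs, over all kept cells and in the macrophage-like, monocyte-like and neutrophil-like classes, with exact 95% counting intervals and dotted lines at 1.5-fold. *C5ar1* over all kept cells (-0.66) is the only point drawn past a dotted line.

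Over all kept cells *C5ar1* was 340 CPM in WT and 215 CPM in *Clec7a*-/- cells, with a log2 ratio of -0.66 (-0.74 to -0.58), and *C3* was 125 and 88.0 CPM, a log2 ratio of -0.51 (-0.64 to -0.38). As a mean over cells of each cell's CPM, in which shallow cells weigh as much as deep ones, these ratios were -0.42 and -0.063. Summed C1q was 3257 and 3099 CPM (-0.07), *C3ar1* 175 and 163 CPM (-0.10), *Cfp* 181 and 171 CPM (-0.08) and *Cfb* 34.7 and 30.03 CPM (-0.21). The C1q chains differed, with -0.27 (-0.36 to -0.19) for *C1qa*, -0.09 (-0.12 to -0.05) for *C1qb* and -0.02 (-0.05 to 0.02) for *C1qc*. *C5ar1* was the 1 of 8 members at least 1.5-fold lower, beside 5.76% of 8470 genes, and 0 of 8 were at least 1.5-fold higher, beside 10.2%. The median log2 ratio was -0.15 for the members and 0.13 for all genes. Scaling by trimmed means (TMM) moved every ratio by -0.17, so the value of a ratio near 0 depends on the scaling. A summed CPM alone does not separate fewer cells of a class from less RNA per cell. Neutrophil-like cells were 25.3% of WT and 20.2% of *Clec7a*-/- kept cells, at a median of 2507 and 1051 UMIs.

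The class and cluster ratios differed from these totals, and the makeup of the libraries differed as well. The exchanges that follow are arithmetic, and the cause was not tested. Makeup here is the share of UMIs, which holds both the number of cells and the UMIs per cell. With WT levels held in every cluster and the share of UMIs set to that of the *Clec7a*-/- library, the log2 ratio was -0.72 for *C5ar1*, -0.65 for *C3* and -0.33 for summed C1q. With the WT makeup held and the *Clec7a*-/- levels put in, it was 0.07, 0.22 and 0.27. Neutrophil-like cells held 14.3% of the WT and 6.32% of the *Clec7a*-/- UMIs, cluster 5 13.3% and 3.64%, and DC-like cells 14.9% and 37.0%. Of the 46 cluster ratios of members with at least 100 UMIs, 38 were above and 8 below 0, beside 49.8% and 50.2% of the 27485 cluster ratios of all genes with as many UMIs. In the 10 clusters that gave a member ratio, 44.6% to 55.8% of all such genes were above 0. The interval lay above 0 in 14 of the 46, beside 12.8% of all cluster ratios, and below 0 in 1, *C3* in cluster 3, beside 12.7%. These ratios are not independent of each other, since the C1q chains share cells and each member enters several clusters. An interval also narrows with more UMIs, and the genes beside the members were not matched for UMIs. Of the 14 intervals above 0, *C1qb* gave 4, *C1qc* 3 and *C1qa* 1, and the rest came from other members.

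**Figure D5:**
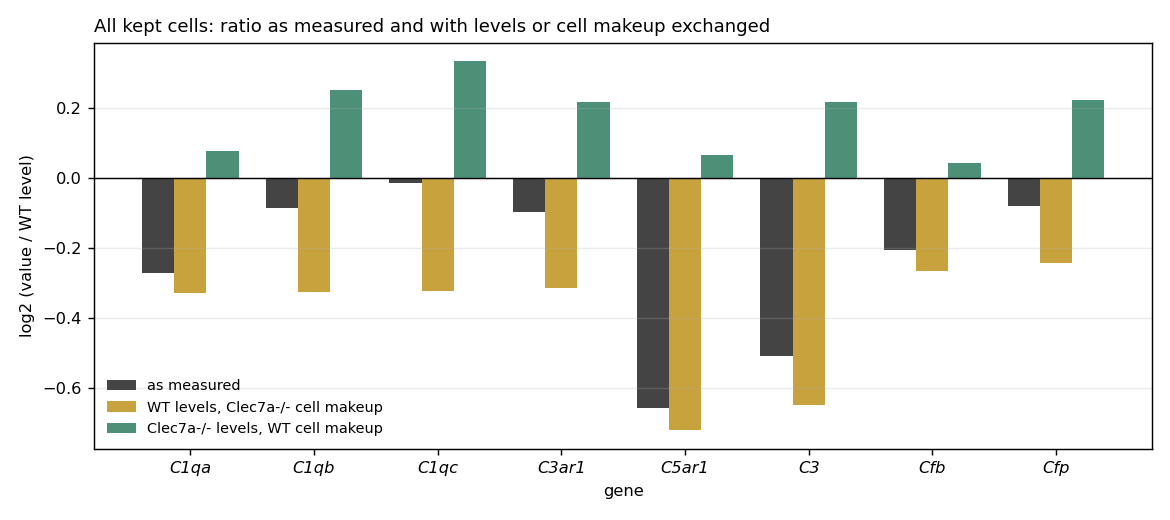
Log2 ratio of the *Clec7a*-/- over the WT library for 8 members, as measured over all kept cells, with the libraries' makeup alone changed, and with the levels within clusters alone changed. For *C5ar1* the values are -0.66, -0.72 and 0.07, and for *C3* -0.51, -0.65 and 0.22.

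Genes whose level followed each member across the 13 clusters of at least 30 cells are given as a description, since clusters share libraries and depth. Among 6931 genes, members left out, *C1qa* and *C1qc* were most like *Trem2* (Pearson r = 0.98 each), a lipid-sensing receptor of macrophages, and *C1qb* was most like *Lpl* (0.98), lipoprotein lipase. *C3* was most like *Clec4d* (0.99), which encodes a C-type lectin receptor, with *Sntb2* and *Rnf149* next. *C3ar1* was most like *Fcgr1* (0.98), the high-affinity IgG receptor, and *C5ar1* like *Slc11a1* (0.98), a metal transporter of phagosomes, and *Itgam* (0.98). *Cfb* was most like *Cd38* (0.97) and *Cfp* like *Atp6ap2* (0.93) and *Lyz2* (0.92). Between members, the C1q chains had r of 0.99 to 1.00 with each other, *C3* had 0.91 with *C5ar1*, and *C3* had 0.06 to 0.08 with the C1q chains. *Itgam* is 1 of the 2 genes whose product was used for the sort.

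Co-detection inside a class was weak. After thinning, *C5ar1* was seen in 25.8% (20.8 to 31.4) of the 279 macrophage-like cells with a *C3ar1* UMI and in 27.1% (23.2 to 31.1) of those without one. In monocyte-like cells *C3ar1* was seen in 12.96% (9.20 to 17.6) of cells with a C1q UMI and in 7.30% (5.57 to 9.35) of cells without one, with intervals that overlapped narrowly. In WT neutrophil-like cells *C5ar1* was seen in 55.7% (47.8 to 63.4) of those with a *C3* UMI and in 47.0% (42.3 to 51.8) of those without. In *Clec7a*-/- neutrophil-like cells these shares were 34.4% (22.7 to 47.7) and 47.4% (39.4 to 55.6), so the libraries went opposite ways, each with overlapping intervals.

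The other listed complement genes were counted in the same cells. Of 54 listed complement genes, the members included, all were in the files, 14 had no UMI in the kept cells and 19 had at least 100. The count was 1 of 9 lectin-pathway and 1 of 7 terminal-pathway genes and 8 of 10 receptors. Of all 32285 genes listed, 8470 had at least 100 UMIs in the kept cells, and how many had none was not counted. Of the 45 complement genes that are not members, 11 reached 100 UMIs. Over all kept cells 3 of these were at least 1.5-fold lower in *Clec7a*-/- cells (*Colec12*, *C5ar2* and *Itgam*) and 2 at least 1.5-fold higher (*C6* and *Clu*), beside 5.76% and 10.2% of all 8470 genes. *Cr1l*, *Itgax*, *Itgb2*, *Cd93* and *C1qbp* had log2 ratios from -0.56 (*Itgb2*) to 0.21 (*C1qbp*).

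*C6*, a component of the membrane attack complex, had 128 of its 137 UMIs in cluster 3. In macrophage-like cells it was 15.2 CPM from 65 UMIs in WT and 34.4 CPM from 70 UMIs in *Clec7a*-/- cells, giving a log2 ratio of 1.18 (0.67 to 1.69). *Colec12*, a scavenger receptor of the collectin family, had 183 of its 198 UMIs in macrophage-like cells, at 29.7 and 27.5 CPM. *C5ar2*, the second C5a receptor, had 108 of 234 UMIs in neutrophil-like cells, at 49.99 and 41.9 CPM. *Clu*, clusterin, which restrains the terminal complex, had 86 of 115 UMIs in cluster 6 of the DC-like class. Within DC-like cells it was 19.1 and 19.6 CPM, a log2 ratio of 0.04 (-0.60 to 0.70), unlike its ratio over all kept cells. The small epithelial-like cluster 13 had a higher level, 236 CPM from 20 UMIs, against 43.3 CPM in cluster 6 (both libraries). The 2 subunits of the iC3b receptors that guided the sort went apart in neutrophil-like cells, where *Itgax* was 708 and 1310 CPM (log2 ratio 0.89) and *Itgam* 827 and 866 CPM (0.07). *Itgax* was highest in cluster 2 (1214 CPM over both libraries), the cluster that made up most of the *Clec7a*-/- class.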

How the data were processed

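The deposited matrices hold raw UMI counts, whole numbers per gene in each barcode that was called as a cell. Submitters' notes name Cell Ranger 2.1.1 and mm10, while the labels describe a SeekOne MM 3′ kit and name 10x Genomics elsewhere. As in the study's methods, cells were kept with between 200 and 4000 genes and up to 5% of UMIs from mitochondrial genes. Seurat 5.3.0 (R 4.3.3) clustered both libraries together: LogNormalize to 10000, 2000 variable features less complement and sex-linked genes, 20 principal components, Louvain at the smallest resolution in steps of 0.1 giving at least 15 clusters. CPM are summed UMIs over total UMIs. Intervals (95%) are exact Poisson, conditional binomial or Clopper-Pearson, and cover counting error only; a count of 0 has a floor of 3. Thinning used seed 1. Likeness used log2(CPM + 10) among genes with at least 200 UMIs. No test was run. Scrublet (scanpy 1.11.5) called 3 and 7 cells, under 0.5%, and whether this low share is right was not checked. Its calls were not used, while its scores served for an alternative. edgeR 4.0.16 gave TMM factors. Scripts were tested on simulated data. Named genes were the members, other complement genes with at least 100 UMIs (1 of them is not reported here), the 3 genes most like each member, and leading genes of clusters, the last chosen after their values were seen. Members and lists were chosen with earlier results of these data known. Positions came from GENCODE (GRCm38) and sequences from RefSeq. Python 3.11.15, numpy 2.4.6, scipy 1.17.1, pandas 2.3.3 and matplotlib 3.10.9 were used.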

Additional observations from a re-analysis of the deposited data

Results flagged for a closer look

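Between the 2 libraries, some members' log2 ratios had counting intervals on opposite sides of 0 in different cell groups; with 1 library per genotype these differences were not tested. *C5ar1* had a ratio of -0.20 in the neutrophil-like class and -1.85 in the DC-like class, and 0.18 in the macrophage-like class. By cluster, *C5ar1* had -1.81 in cluster 6 and -2.35 in cluster 8, from 43 and 21 UMIs over both libraries, and 0.26 in cluster 7. *C1qc* had -1.54 in cluster 8, from 17 and 7 UMIs, and 0.35, 0.49 and 0.36 in clusters 3, 5 and 7. *C3* had -0.69 in cluster 3, and 0.42 and 0.49 in clusters 0 and 5. The DC-like clusters 6 and 8 had levels of *C5ar1* and *C1qc* no higher than those of the T-cell-like cluster in at least 1 library.

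Barcodes outside the filter, which entered no cell class, carried more of several members than kept cells in the WT library. In removed WT barcodes *C1qa* was 349.7 CPM, *C1qb* 2318 CPM, *C1qc* 1770 CPM, *Cfp* 206 CPM and *C3ar1* 203 CPM. In kept WT cells these were 264, 1710, 1283, 181 and 175 CPM. *C3* and *C5ar1* went the other way, with 32.9 and 152 CPM in removed and 125 and 340 CPM in kept WT barcodes. In removed *Clec7a*-/- barcodes they were 223, 1526, 1189, 146 and 142 CPM.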

How the results depend on the processing

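No paired analysis was possible because each genotype has 1 library. Over all kept cells, alternatives moved the log2 ratios without turning a member whose interval excluded 0. With up to 10% mitochondrial UMIs they were -0.38 (*C1qa*), -0.19 (*C1qb*), -0.13 (*C1qc*), -0.71 (*C3*), -0.26 (*C3ar1*) and -0.77 (*C5ar1*). With TMM they were -0.44, -0.25, -0.18, -0.68, -0.27 and -0.83 in the same order, and -0.25 for *Cfp*. With no filter on cells, an alternative added after the data were seen, they were -0.36, -0.22, -0.17, -0.70, -0.22 and -0.74, and -0.20 for *Cfp*. With the top 5% of Scrublet scores removed *C1qb* was -0.048. As a mean over cells *C1qb* was -0.13, *C1qc* -0.056, *C3* -0.063 and *C5ar1* -0.42. In macrophage-like cells reciprocal PCA gave 0.29 for *C1qc*.

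Where the reported interval lay on 1 side of 0, the sign changed only in monocyte-like cells. Reciprocal PCA gave -0.11, -0.14 and -0.13 for *C1qa*, *C1qb* and *C1qc* and -0.14 for their sum. A limit of 500 to 6000 genes gave -0.015 for *C1qb*, -0.041 for *C1qc* and -0.019 for the sum, and a resolution higher by 0.4 gave -0.0026 for *C1qb* and -0.0084 for *C1qc*. The cause was not tested. Using 30 components, or complement genes among the features, turned none of these ratios. Of 351 alternative log2 ratios, 296 stayed within the counting interval of the value reported, 46 left it with the same sign or from an interval that held 0, and 9 are those above. In all 35 differed in sign, 12 of them in DC-like, 11 in monocyte-like and 10 in neutrophil-like cells and 2 over all kept cells. The 9 that moved by over 1.5-fold were 8 in DC-like and 1 in monocyte-like cells. Of 342 alternative levels, 10 moved by over 1.5 times, and of 80 shares thinned to 2000 UMIs or not thinned, 58 did. At a minimum of 20 UMIs, genes at least 1.5-fold lower and higher numbered 803 and 1786 (all kept cells), 839 and 741 (neutrophil-like), 517 and 713 (monocyte-like), 675 and 580 (macrophage-like) and 550 and 847 (DC-like). The members among them were 1 of 8 over all kept cells, *C5ar1*, which was lower beside 7.01% of 11461 genes. In DC-like cells they were 2 of 7, *C1qa* and *C5ar1*, both lower beside 6.53% of 8423 genes. Ratios of *C4b*, of *Cfb* in neutrophil-like and DC-like cells and of *C3ar1* in neutrophil-like cells were not run, as under 20 UMIs were seen.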
